A study of Mus musculus with 2 samples.

Results

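The genes described here code for the proteins of the cytosolic ribosome, read in gastrocnemius (GAS) muscle of *Gde5* skKO and WT mice. The rule for a member reads only the array name, but the set was picked with earlier results of these data known. A member was any gene whose array name starts with Rpl or Rps followed by a digit, or is Rpsa, Rplp0, Rplp1 or Rplp2, with the Rps6k kinase genes left out. This gave 83 genes with 138 probes, of 27556 genes named on the arrays, and all 83 were well above background in both dye channels on both arrays. Of the 83, 31 are proteins of the small (40S) subunit, 46 are proteins of the large (60S) subunit, and 5 are paralogs, second genes that code for a close relative of a subunit protein. The last is Rps19bp1, which meets the rule by its name but codes for a protein that binds Rps19 and is not part of the ribosome.

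*Gde5*, also called Gpcpd1, codes for the enzyme that splits glycerophosphocholine into glycerol-3-phosphate and choline. In the *Gde5* skKO mice, of C57BL/6 background, exon 11 was flanked by loxP sites and cut out by a Cre recombinase under the human skeletal actin promoter, which is active in muscle fibres, so other cells of the muscle keep the gene. The labels call the control mice wild-type, and the methods describe floxed mice without Cre. All mice were male, 15 weeks old and kept on a normal diet. The paper describes array data after a glucose injection and further transcriptome data under fasting. Neither its array methods nor the labels say which state these arrays hold, or if both hold the same. On that state mTORC1 activity is known to depend. Means over both arrays take them as repeats of 1 comparison. Each of the 2 arrays held both genotypes, with *Gde5* skKO RNA in Cy5 and WT RNA in Cy3 on array 1 and the dyes swapped on array 2. The design text names 5 mice. Neither it nor the labels state how many mice went into an array, or if the dye swap reused 1 pair of RNA samples, so mice could not enter a test.

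Ribosomes carry out protein synthesis, and in muscle their number bears on how fast fibre protein can be built. Each subunit is assembled in the nucleolus from ribosomal RNA and single copies of most of its proteins, and the cell keeps those proteins in step with each other. In mammals this balance is set largely in translation, because most ribosomal protein mRNAs begin with a cytosine and a run of pyrimidines, the 5′ terminal oligopyrimidine (TOP) tract, through which mTORC1 and the RNA-binding protein LARP1 decide whether the mRNA is translated. An array reads the mRNA level and not this step.

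The start sites were read for such a tract, which the choice of members did not use. RefSeq gave a window of 250 bases before to 50 bases from the start for 63 of the 83 genes, on assembly GRCm38.p6. A run of at least 6 C or T letters touched the 5 bases on either side of the start in 31 of the 63 windows (49.2%), against 6481 of 27025 windows of all genes (24.0%). A start that is itself a C followed by 4 C or T letters was found in 13 of the 63 (20.6%), against 2.87% of all windows. Where a gene has several starts, the start with the longest run was taken, in both sets. The sequences below run from 12 bases before the start to 18 bases from it, and the capitals mark the run of C and T. The first 4 are subunit genes with a long run, followed by 3 gene and paralog pairs, which set a subunit gene beside its relative, and by 2 members from the ends of the order of ratios given further on.
Rps6, chr4:86857350-86857379, minus strand: cggaagtcgggCCTCTTTTTCgtgacgcct
Rplp2, chr7:141447639-141447668, plus strand: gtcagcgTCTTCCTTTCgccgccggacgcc
Rpl13a, chr7:45128728-45128757, minus strand: accctgcgacaagaCCTCCTCCTTTCCCag
Rpl38, chr11:114668568-114668597, plus strand: ggaagcctcgTTCTTTCCCCgttctcttcg
Rps27, chr3:90213631-90213660, minus strand: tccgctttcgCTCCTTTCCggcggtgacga
Rps27l, chr9:66946074-66946103, plus strand: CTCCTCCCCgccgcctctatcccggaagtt
Rpl22, chr4:152324424-152324453, plus strand: tgcttctggaatgTTCCagctcccactgac
Rpl22l1, chr3:28805496-28805525, plus strand: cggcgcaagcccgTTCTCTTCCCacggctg
Rpl36a, chrX:134585642-134585671, plus strand: cacccaggcaccgCCTataaacttccgttg
Rpl36al, chr12:69184050-69184079, minus strand: tcccgtcgCTCaggttcagttccgacttcc
Rpl10, chrX:74270804-74270833, plus strand: gttacagTggaagataggccgcctatataa
Rps21, chr2:180257367-180257396, plus strand: cgaggacccgCCCTCCTgcccaatagtgct

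The run measured 10 letters in Rps6, 10 in Rplp2, 14 in Rpl13a and 10 in Rpl38. In Rpl10 the longest run at the RefSeq start was 1 letter, and a RefSeq start can differ from the start that muscle uses. Over the whole window, the letters CCGGAAG, the core bound by ETS factors, were present on either strand in 24 of 63 member windows (38.1%) and in 9.04% of all windows. The letters AAGATGGC, the core of the YY1 site, were present on either strand in 6 of 63 (9.52%) against 2.83%. Neither was particular to the members, since the 69 windows of mitochondrial ribosomal proteins held CCGGAAG in 34.8% and AAGATGGC in 17.4%. A C followed by 4 C or T letters at the start was found in 0 of those 69. Among members, the TATA box letters TATAAA, also counted on either strand, were in 7 of 63 windows (11.1%) against 14.1% of all. These matches describe the letters and not bound sites. The 34 members whose run was 5 to 21 letters long had a median log2 ratio of -0.024, and the 29 with a shorter run had -0.012, on the ratio defined next.

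The arrays gave each spot a processed signal per channel, an intensity after background subtraction and dye normalization, and a log ratio of both channels, here turned to *Gde5* skKO over WT on the log2 scale. Each gene was read from its brightest probe. A gene was called when the p-value of Agilent's error model was under 0.05 on both arrays with the same direction. That p rests on an error model within 1 array and says nothing of how mice vary. In bright spots it followed almost wholly from the size of the ratio. On array 2, Rpl23 and Rps29 both had a log2 ratio of -0.15 and a p of 0.45 in this model, at WT signals of 9258 and 54930. In this way 13590 genes passed the filter, which asks for a signal well above background in 1 channel or both on each array. The labelled tissue fitted its markers, since all 7 skeletal muscle markers were well above background and none was called. Of the 4 Gpcpd1 probes, 3 had mean log2 ratios between -3.18 and -2.93, and the last had -0.26. Which of them lies in the deleted exon was not determined here.

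No ribosomal protein gene was called higher or lower. Among all 13590 genes, 1.58% were called higher and 1.73% lower, so 0 of 83 lies close to the background and is not in itself a result about these genes. The median log2 ratio of the 83 was -0.020 on array 1, -0.044 on array 2 and -0.029 for the mean of both, against 0.0083, 0.016 and 0.015 for all genes. The means ran from -0.30 for Rplp1 to 0.17 for Rpl10. They lay within 0.25 of 0 in 81 of 83 members (97.6%), against 81.7% of the 7998 other genes at least as bright as the dimmest member. The standard deviation across genes was 0.099 for the members and 0.227 for those other genes.

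**Figure D1:**
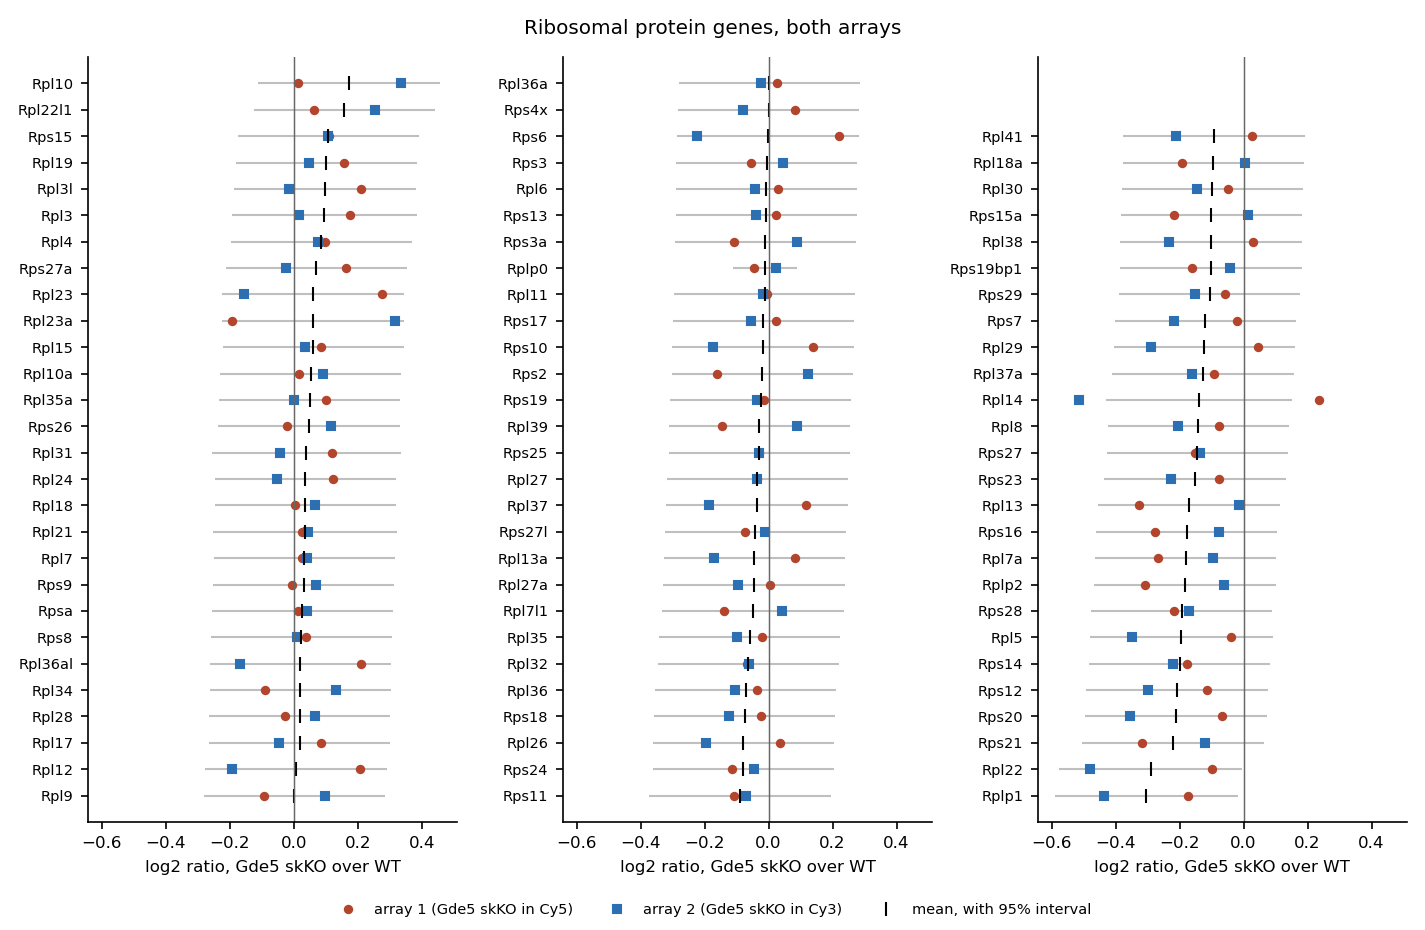
The log2 ratio of *Gde5* skKO over WT of 82 of the 83 ribosomal protein genes, ordered by their mean, with circles for array 1, squares for array 2, a tick for the mean and a grey line for its 95% interval from Agilent's error model. The means run from 0.17 for Rpl10 to -0.30 for Rplp1, and the intervals of all genes drawn but Rpl22 and Rplp1 cover 0.

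How small a difference these arrays could show was read from the error that Feature Extraction gives each ratio. The 95% interval of a member's mean, taking the errors of both arrays as independent, reached a median of 0.28 to either side on the log2 scale. The widest reached 0.29, while the standard deviation over the 2 arrays went up to 0.53. The intervals thus follow the error model more than the spread between the arrays. All 83 intervals lay within a fold of 2 in either direction, and 82 lay within a fold of 1.5. The exception was Rplp1, whose interval reached down to a fold of 0.664. Changes smaller than these bounds are not shown to be absent. Both channels are also set to a common level on each array, so a change shared by all RNA of a fibre, ribosomal RNA included, would not appear in any ratio. In a whole muscle, fewer cells of a type and less RNA per cell cannot be told apart.

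**Figure D2:**
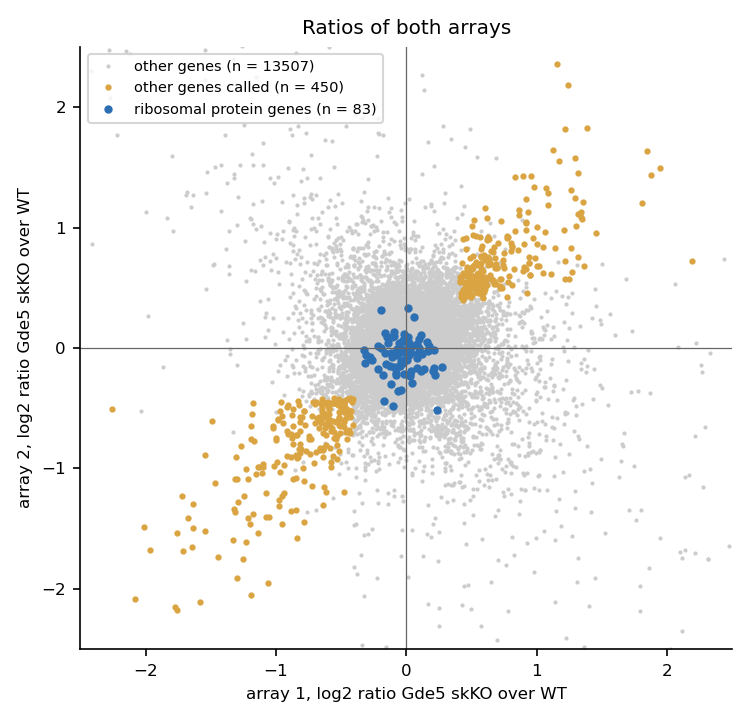
The log2 ratio of *Gde5* skKO over WT on array 1 (x axis) and array 2 (y axis), with 83 ribosomal protein genes in blue, 450 other called genes in orange and the remaining genes in grey. The 83 lie in the centre. None was called, and their distance from the called genes follows largely from the rule for a call. A further 40 other genes lie outside the plotted range of 2.5 in either direction.

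The P-stalk of the large subunit is an arm of Rplp0 with copies of Rplp1 and Rplp2 that draws elongation factors to the ribosome. Rplp1, on chromosome 9 of the mouse assembly mm8 at 61711300 to 61711359, had signals of 61189 in *Gde5* skKO and 68942 in WT on array 1, and of 51194 and 69318 on array 2. Both *Gde5* skKO signals lay below both WT signals, and the fold was 0.81 with an interval of 0.664 to 0.987. The Feature Extraction p was 0.40 on array 1 and 0.035 on array 2, so Rplp1 was not called. Rplp2, at 141302601 to 141302660 on chromosome 7, had signals of 64794 and 80166 on array 1 and of 71987 and 75052 on array 2, again in the order *Gde5* skKO and WT. Its *Gde5* skKO signals were also both the lower ones, with p of 0.14 and 0.77. Rplp0 was spotted 10 times by 1 probe, and its interval was the narrowest because the error was averaged over these spots. Rplp0 had a mean log2 ratio of -0.011, with an interval of -0.11 to 0.089 that takes the spots as independent. Its signals of 9334 and 9639 on array 1 and of 10314 and 10148 on array 2 were in opposite order. The stalk thus held the member with the lowest ratio and 1 of the members closest to 0.

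Rpl5 and Rpl11 carry the 5S RNA into the large subunit and, when free, bind the p53 regulator Mdm2. Rpl5 had signals of 54211 in *Gde5* skKO and 55729 in WT on array 1, and of 50858 and 64731 on array 2. Its mean log2 ratio was -0.19 with p of 0.85 and 0.092, so nearly all of the difference came from array 2. Rpl11 had a mean of -0.012, with 13444 and 13501 on array 1 and 11801 and 11956 on array 2, and the genotypes overlapped.

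Among the other proteins of the large subunit, Rpl10 joins it last and is needed for the subunits to pair. Rpl10 had signals of 8538 in *Gde5* skKO and 8461 in WT on array 1 and of 8785 and 6965 on array 2. All signals of *Gde5* skKO lay above those of WT, and the mean of 0.17, the highest of the members, rested on array 2, with p of 0.95 and 0.10. This probe lies on chromosome 13 of mm8, whereas RefSeq places Rpl10 on chromosome X, so its reading cannot be told apart from that of a copy of the gene. The probes of the other members were not checked for matches to gene copies either. The other Rpl10 probe, on chromosome X, had a mean of 0.13. Rpl19 had a mean of 0.10 and lay above 0 on both arrays. Rpl13a, which can leave the ribosome to silence inflammatory mRNAs, had -0.044, and Rpl38, needed for translation of Hox mRNAs in the embryo, had -0.10. Rpl10a had 0.053. None of these 4 had p under 0.05 on either array.

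Rpl14 was the member on which the arrays differed most. Its signals were 784 in *Gde5* skKO and 666 in WT on array 1, and 476 and 680 on array 2. The log2 ratio was thus 0.24 on array 1 and -0.51 on array 2, with p of 0.25 and 0.015. The mean of -0.14 describes neither array. With Rpl22 and Rplp1 it was 1 of 3 members with p under 0.05 on array 2 alone, all 3 lower, where 6.73% of all genes were lower and 7.17% higher by that rule. On array 1 alone no member had p under 0.05, against 12.2% of all genes in either direction. All genes include many dimmer than any member. Of the 7998 other genes at least as bright as the dimmest member, 612 had p under 0.05 on array 1 and 848 on array 2.

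The small subunit reads the mRNA. For its 31 proteins the median log2 ratio came to -0.056 on the first array and -0.071 with dyes swapped, where the 46 large subunit proteins had 0.0087 and -0.045. For the mean of both arrays the medians were close, at -0.029 for the small subunit and -0.021 for the large. Of the 31, 16 lay below 0 on both arrays, 3 lay above 0 on both and 12 changed sign, and of the 46 the counts were 14, 10 and 22. Among all genes, 25.3% lay below 0 on both arrays, 29.2% above and 45.6% changed sign. In the 7998 other genes at least as bright as the dimmest member, the counts were 2406, 2451 and 3141. Rps6, the protein that S6 kinases phosphorylate when mTORC1 is active, had signals of 2274 in *Gde5* skKO and 1951 in WT on array 1 and of 3450 and 4026 on array 2. Its ratio was 0.22 on one array and -0.22 on the other, and the mean was -0.00091. Rps3, which lines the channel where mRNA enters, had a mean of -0.0051, and Rpsa, also known as a laminin receptor, had 0.027. Rps19, the gene first linked to Diamond-Blackfan anaemia, had -0.025. Rps27a, made as a fusion with ubiquitin, had 0.071. None of these 5 had p under 0.05 on either array.

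The lowest small subunit genes were Rps21, Rps20 and Rps12. Rps21 had signals of 23376 in *Gde5* skKO and 29148 in WT on array 1 and of 23791 and 25877 on array 2. Rps20 had 35646 and 37324 on array 1 and 32166 and 41122 on array 2. Rps12 had 20707 and 22403 on array 1 and 18442 and 22698 on array 2. A second Rps20 probe had a mean log2 ratio of 0.031, and the mean over both probes was -0.090 in place of -0.21. In the brightest probes of all 3 genes both *Gde5* skKO signals lay below both WT signals, and the smallest p on any array was 0.086, for Rps20 on array 2. The 3 were picked for their low ratios, which favours this order of signals, and 17.8% of all genes had it. Rps15, the highest small subunit gene, had the same log2 ratio of 0.11 on both arrays, with p of 0.59 and 0.60, and signals of 2542 and 2356 on array 1 and of 2689 and 2496 on array 2. Both of its *Gde5* skKO signals lay above both WT signals, as in 21% of all genes, and Rps15 too was picked by its ratio.

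Signals of the 2 genotypes did not overlap in 23 members, 19 with *Gde5* skKO below WT and 4 above. Among all genes, 17.8% had *Gde5* skKO below WT in this way and 21% above. The 7998 other genes at least as bright as the dimmest member are closer to the members in signal, and 1738 of them lay below and 1696 above. Beside the members already given with these values, the 19 included Rpl7a, Rpl8, Rpl13, Rpl27, Rpl32, Rpl36, Rps14, Rps19bp1, Rps23 and Rps29. The 4 were Rpl10, Rps15, Rpl3 and Rpl4. Rps14, next to the mRNA in the platform of the small subunit, had signals of 84474 in *Gde5* skKO and 95565 in WT on array 1 and of 87357 and 101870 on array 2. Its log2 ratio was -0.18 on array 1 and -0.22 on array 2, with p of 0.38 and 0.28. Both arrays gave nearly the same size for Rps14, and neither p was under 0.05. Most of the 19 were bright members. Of the 42 members at or above the median member signal of 17635, 17 had *Gde5* skKO below WT and 0 above, while of the 41 dimmer members 2 lay below and 4 above. The median log2 ratio was -0.091 in the brighter members and 0.00044 in the dimmer ones. The 474 other genes at least as bright as that median held 119 with *Gde5* skKO below WT and 103 above, with a median ratio of -0.013. Across the 83 members, the mean ratio fell with the mean log2 signal at a Pearson r of -0.42 and a Spearman rho of -0.51. With limma's background correction and loess normalization, which removes a trend of ratio with signal over all spots of an array, these were -0.33 and -0.40, and the median of the brighter members was -0.067. These are descriptions across genes read on the same 2 hybridizations. The part that signal itself plays was not tested.

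**Figure D3:**
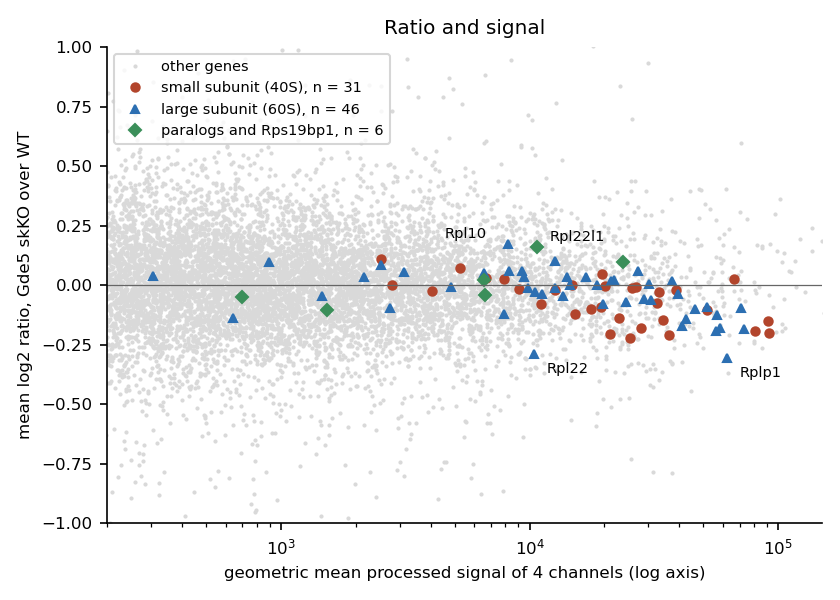
The mean log2 ratio of *Gde5* skKO over WT (y axis) against the geometric mean processed signal of both channels on both arrays (log x axis), with 31 small subunit genes as circles, 46 large subunit genes as triangles, 5 paralogs and Rps19bp1 as diamonds and other genes in grey. The y axis ends at 1 in either direction and dimmer genes are not drawn. The members at or above a signal of 17635 have a median of -0.091 and the dimmer ones 0.00044.

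The order of the members did not repeat between arrays. Across the 83 genes, the ratios of array 1 and array 2 had a Pearson r of -0.057 and a Spearman rho of -0.016. This was not particular to the members, as the same ratios of all 13590 genes had an r of -0.080 and a rho of 0.084. With limma's ratios r was -0.60 and rho -0.40 in the members, and 0.18 and 0.064 in all genes. In the deposited ratios 37 of the 83 members had opposite signs on the 2 arrays, near the 45.6% of all genes. Opposite signs were found in 3141 of the 7998 other genes at least as bright as the dimmest member. The median standard deviation over the 2 arrays was 0.096 in the members and 0.15 in all genes, many of which are dimmer than any member. Differences in order between neighbours in the list of members are therefore within the spread of the arrays. In 5 members the signal, as the geometric mean of both channels, was over 1.5 times higher on array 1, and in Rps6 it was 0.565 of that on array 2. Among all genes 227 were over 1.5 times higher on array 1 and 248 on array 2. The shift was widest in Rpl21, with 4885 and 4803 on array 1 and 978 and 948 on array 2. Its ratio stayed at 0.025 and 0.046, since both genotypes moved together.

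Paralogs can take the place of a subunit protein, and Rpl3l is the form of Rpl3 known from striated muscle. Rpl3l had signals of 25261 in *Gde5* skKO and 21844 in WT on array 1 and of 24072 and 24313 on array 2. Rpl3 had 938 and 831 on array 1 and 910 and 899 on array 2. Both had a mean log2 ratio of 0.10, and the difference between their ratios was 0.0014 with an interval of -0.40 to 0.41. The balance of the pair is known only within that interval. It also depended on the normalization, since with limma's ratios Rpl3 had -0.23 on array 1 and a mean of -0.011, while Rpl3l had a mean of 0.090.

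Rpl22 binds RNA outside the ribosome and is known to lower the mRNA of its own paralog, Rpl22l1. Rpl22 had signals of 10161 in *Gde5* skKO and 10889 in WT on array 1 and of 8797 and 12269 on array 2. Rpl22l1 had 13901 and 13306 on array 1 and 9298 and 7794 on array 2. The mean log2 ratio was -0.29 for Rpl22, with p of 0.63 and 0.021, and 0.16 for Rpl22l1, with p of 0.76 and 0.22, so neither was called. The ratio of Rpl22l1 exceeded that of Rpl22 by 0.16 on array 1 and by 0.73 on array 2, a mean of 0.45 with an interval of 0.046 to 0.85 that is not adjusted for the 5 pairs compared. A second Rpl22 probe went the other way. It lies at 151177703 to 151177762 on chromosome 4 of mm8, where the brightest lies at 151173849 to 151173908, and had signals of 3712 in *Gde5* skKO and 3188 in WT on array 1 and of 3603 and 3153 on array 2, a mean log2 ratio of 0.21. The direction of Rpl22 thus depended on the probe.

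In the other 3 pairs the intervals covered 0, as for Rpl3 and Rpl3l. Rps27l, a p53 target, exceeded Rps27 by 0.10 with an interval of -0.30 to 0.50, Rpl7l1 differed from Rpl7 by -0.082 with -0.48 to 0.32, and Rpl36al from Rpl36a by 0.020 with -0.38 to 0.42. Rps27 had signals of 34181 in *Gde5* skKO and 37984 in WT on array 1 and of 31479 and 34602 on array 2, and both *Gde5* skKO signals lay below both WT signals. Rpl39 and Rps4x, whose relatives were not among the members, had means of -0.029 and 0.00044.

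**Figure D4:**
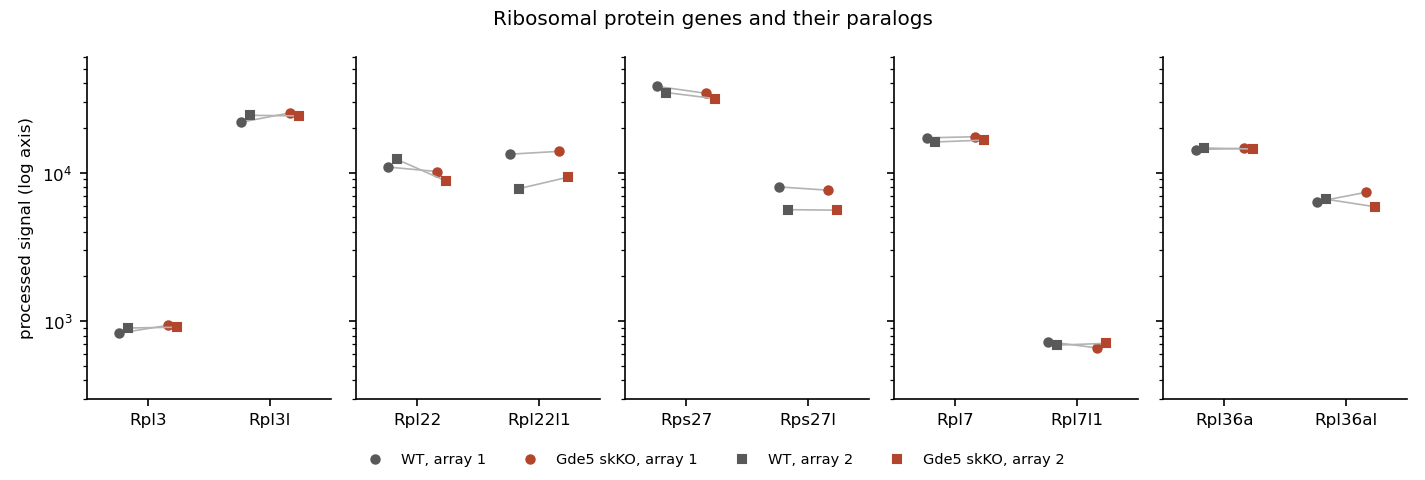
Processed signal (log axis) of 5 ribosomal protein genes and their paralogs in WT (grey) and *Gde5* skKO (red), with circles for array 1, squares for array 2 and a line joining the genotypes of an array. The lines of Rpl22 slope down and those of Rpl22l1 slope up on both arrays, neither gene was called, and the heights of different genes are not comparable because each is read by its own probe.

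Of the 83 genes, 34 had more than 1 probe well above background, and no member probe of the 138 was called. The means of the probes of a gene differed by under 0.25 in 30 of the 34 and by over 1 in none. The widest range was that of Rpl13, from -0.17 for its brightest probe to 0.56 for a probe with signals of 49.9 in *Gde5* skKO and 49.4 in WT on array 1 and of 97.1 and 45.0 on array 2. The remaining 12 probes were not well above background in a channel of both arrays, each beside a brighter probe of the same gene.

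Other tests gave few calls as well. limma's moderated test on loess ratios had an unadjusted p under 0.05 for 2 members, Rplp1 and Rpl22, both lower, where 4.26% of all genes were lower and 4.23% higher, and no member had an adjusted p under 0.05. The smallest limma adjusted p among the 83 was 0.545. The methods' t-test on the channel signals had an unadjusted p under 0.05 for 2 members, both lower, beside 4.21% of all genes, and none after adjustment. No member was among the calls of both tests.

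The other genes of the ribosome and of translation were read in the same way. Among ribosomal proteins with other names, Fau and Rack1 had mean log2 ratios of -0.22 and -0.023, and neither was called. Of 16 elongation factors and other genes with TOP mRNAs none was called, with a median of -0.011. Of 35 initiation factors none was called, with a median of 0.035, and of 16 genes of ribosomal RNA transcription none, with a median of 0.071. Of 35 ribosome assembly genes 1 was called, Mybbp1a, a nucleolar protein that also binds Myb, with signals of 379 in *Gde5* skKO and 281 in WT on array 1 and of 390 and 253 on array 2 and a mean of 0.53. With limma's ratios the mean of Mybbp1a was 0.24. The 78 proteins of the mitochondrial ribosome, a separate machine for the proteins coded in mitochondrial DNA, had 1 call, which was higher, and a median of 0.085. Both single calls stand beside 1.58% of all genes called higher and 1.73% lower, and are not in themselves a result about either list. Of these 78, 35 lay above 0 on both arrays and 14 below, where the 83 cytosolic members had 14 above and 32 below, beside 29.2% and 25.3% of all genes. In the 7998 other genes at least as bright as the dimmest cytosolic member, 2451 lay above 0 on both arrays and 2406 below. No test of the difference between the 2 ribosomes was made.

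**Figure D5:**
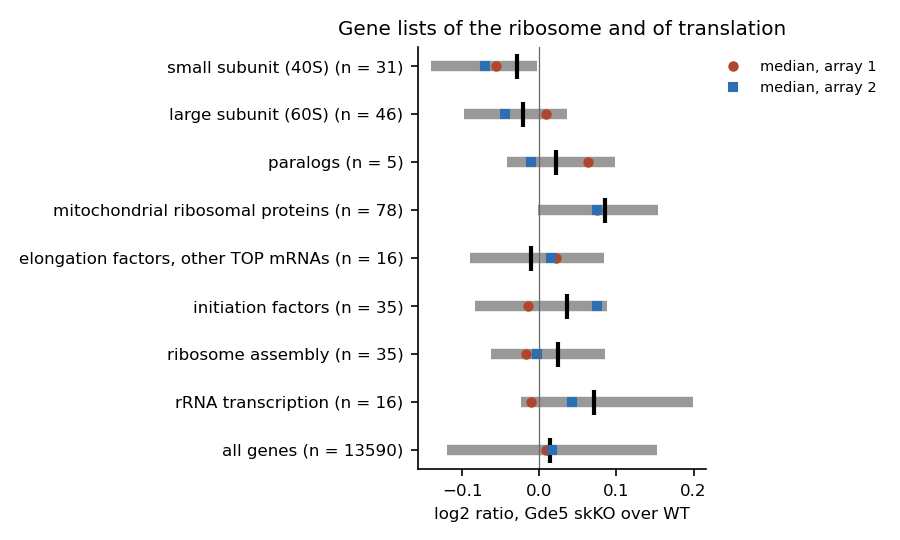
The median log2 ratio of *Gde5* skKO over WT of each gene list on array 1 (circles), array 2 (squares) and for the mean of both (ticks), with grey bars from the lower to the upper quartile of the means. Mitochondrial ribosomal proteins have a median of 0.085, and the small and large cytosolic subunits have -0.029 and -0.021.

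Markers of other cell types moved on these arrays, and ribosomal protein mRNAs are present in every cell type. Of 6 adipocyte markers well above background, of 7 listed, 5 were called lower, with mean log2 ratios of -0.69 or lower. Their summed signal was 4365 to 4376 in *Gde5* skKO and 7879 to 8139 in WT. With Fabp4, which had a mean log2 ratio of 0.054 and most of the signal, the sums were 41144 to 43232 and 43777 to 45066. Lep was not well above background. Of 4 liver markers well above background, of 7 listed, 2 were called lower and 1 higher, with sums of 1681 to 1743 against 2968 to 3068, and Apoa1, Apoa2 and Ttr were not well above background. Of 6 slow muscle markers 2 were called higher, with sums of 133460 to 135938 against 94802 to 97662. Among these 6, Myh7 had a mean log2 ratio of 0.33 and was not called. In the paper, mRNAs of the fibre types read by qPCR were comparable between the genotypes. None of 3 blood, 5 leukocyte and 5 fibroblast markers was called, and 1 of 4 endothelial markers was higher. The part of these cells in the ratios of the members was not tested.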

How the data were processed

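GAS muscle RNA of both genotypes was hybridized on 2 two-colour Agilent arrays with swapped dyes. Per the labels, the authors used Agilent Feature Extraction 9.5. For each spot the deposited files hold the log10 ratio of the red over the green dye and its error, a p-value from the error model, and the intensity of both channels and of the local background. The same log10 ratio, with array 2 not turned, is deposited in the series table.

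Ratios were put on the log2 scale as *Gde5* skKO over WT, and spots of 1 probe were averaged. Of 43379 spots, 195 on array 1 and 221 on array 2 carried outlier marks and were dropped. A gene had to be well above background in 1 channel on both arrays, and its brightest probe stood for it. The p of a probe with several spots was their median, and intervals are the mean ± 1.96 standard errors from the deposited errors. Both arrays lie on 1 slide and 1 scan. Precision is limited by how few arrays there are. RefSeq named 24375 of 41174 probes through their accession, 6301 through the symbol and 2426 through a synonym, and members were found by the array's own name. A further 2 probes that RefSeq now gives to a member symbol were not members.

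The members and gene lists were chosen with earlier results of these data known. Genes named were every called member, the 5 highest and 5 lowest means, members of a listed special role, paralog pairs, members whose probes differed by over 1 and those not above background. Rpl14, Rpl21, the members whose signals did not overlap and the dim Rpl13 probe were named after their values were seen. Some genes are counted but not reported by name here. Alternatives used limma 3.58.1 (normexp with an offset of 50, then loess) under R 4.3.3, the methods' t-test, other filters and thresholds, and each array alone. Other steps ran in Python 3.11.15 with scipy 1.17.1, pandas 2.3.3, matplotlib 3.10.9 and numpy 2.4.6.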

Additional observations from a re-analysis of the deposited data

How the results depend on the processing

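The count of members called higher was 0 under every alternative run. The count called lower was 0 under all but 3 of them. It was 2 with limma's unadjusted p, 2 with the methods' t-test before adjustment, and 0 to 3 with each array alone, the 3 coming from array 2. The limma pair was Rplp1 and Rpl22, and neither was among the 2 of the t-test. The median log2 ratio of the members lay between -0.030 and -0.029 over other background corrections, probe choices, filters and the series table, and between -0.044 and -0.020 with each array alone. Among named members, the mean over all probes moved Rpl22 from -0.29 to -0.042 and Rps20 from -0.21 to -0.090. With both arrays used, 8 of the 31 changed sign under some alternative, all with means within 0.25 of 0. The genotypes are paired within each array, so every ratio and limma's test are paired, and the t-test of the channel signals is the analysis without the replicate block. No block for the slide could be fitted, there being 1 slide. The precision is that of 2 hybridizations, with intervals that reach a median of 0.28 to either side on the log2 scale, and the spread between mice is unknown.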

Other observations

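Rps19bp1, which binds Rps19 and is not part of the ribosome, had signals of 1436 in *Gde5* skKO and 1605 in WT on array 1 and of 1528 and 1575 on array 2, and was not called. Both *Gde5* skKO signals lay below both WT signals. Its second probe had a mean log2 ratio of 0.035, where the brightest had -0.10.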
